A study of Mus musculus with 4 samples.

Results

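Surface proteins of the Ly6/uPAR family were followed in injured mouse colon epithelium of 2 Ezh2 genotypes through 10 genes: Ly6a, Ly6c1, Ly6d, Ly6e, Lypd8, Gml, Gml2, Plaur, Lypd3 and Cd59a. They are 10 of the 18872 genes listed in the deposited tables, found by symbol through their Entrez identifiers, and 9 of them passed the filter on low counts. Ly6g, which only the replicate 2 tables list, was left out. The 10 genes were chosen by their measured difference between these same genotypes, so that difference is given as a description, and tests are reported for genes outside the 10. The RNA came from isolated epithelium of the colon after 3 days of 2% dextran sulfate sodium (DSS), which damages the mucosa. One group was wild type (2 libraries) and the other had the genotype EZH2-IEC-/- (2 libraries), named for the histone methyltransferase Ezh2 and called knockout here. Both groups received DSS, and untreated mice were not analysed here. What drives the deletion, the strain, the age, and whether the libraries of a group are separate mice are not stated in the labels, so the library-to-library variation behind each p-value may be technical only.

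Ly6/uPAR proteins share a small disulfide-braced fold with finger-like loops, and most are held on the outer face of the plasma membrane by a glycosylphosphatidylinositol (GPI) lipid anchor. In the mouse many of the short members sit side by side on chromosome 15, where copies have arisen by duplication. Ly6a, also called Sca-1, marks blood stem cells and the regenerating, fetal-like epithelium of the injured colon, and several of its relatives respond to interferon. Lypd8 is a heavily glycosylated protein of colon enterocytes that keeps flagellated bacteria away from the epithelial surface.

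Library totals were between 5037367 and 5446998 estimated counts. Ezh2 itself had 105 and 102 wild-type counts against 86 and 83, a log2 fold change of -0.27 ± 0.17 (SE) that did not pass edgeR's quasi-likelihood test (adjusted p = 0.217). A gene-level value does not show which exons the reads cover, so the genotype labels are unchecked. Epithelial identity was measured with 13 defining markers, all present in every library, whose summed FPKM (fragments scaled by transcript length and library depth) was 12462 and 12970.2 for wild type, then 13278 and 13818 for knockout. Of the 13, 7 rose and 3 fell in knockout: Krt8, Krt18 and Krt19, keratins of simple epithelium, rose by 0.30, 0.68 and 0.29 (log2 fold change), while Phgr1 and the adhesion gene Cdh1 changed by -1.37 and -0.60. Krt19 was not called in limma (adjusted p = 0.169 and 0.157). Of 13608 genes tested, 43.7% passed the threshold of an adjusted p under 0.05, 23.0% as higher and 20.8% as lower in knockout. These shares are the background for every count of calls in a list below. Under library totals alone in place of TMM factors, the median log2 fold change of all genes moved from -0.002 to -0.10. Higher genes then made up 42.4% of the calls in place of 52.5%. Log2 fold changes with no setting named come from the edgeR fit to TMM-scaled counts, not from the FPKM beside them.

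Several of these genes are close copies, and how far their reads can be told apart bears on every value below. The first 90 coding bases are shown 5′ to 3′ for the closest pairs, from the GENCODE M21 transcripts that carry the deposited RefSeq accessions, with capitals at bases that differ within a pair. Gml and Gml2 were alike at all 90 bases, so no capitals appear.
Gml: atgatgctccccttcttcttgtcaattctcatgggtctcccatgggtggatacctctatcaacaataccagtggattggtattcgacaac
Gml2: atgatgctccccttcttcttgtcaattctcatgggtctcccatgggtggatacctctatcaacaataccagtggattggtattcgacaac
Ly6a and Ly6c1 differed at 4 of the 90 bases.
Ly6a: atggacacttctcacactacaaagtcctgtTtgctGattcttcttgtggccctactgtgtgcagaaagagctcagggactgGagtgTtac
Ly6c1: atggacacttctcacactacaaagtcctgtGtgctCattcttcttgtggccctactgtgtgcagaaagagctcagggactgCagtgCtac
Ly6c1 and Ly6c2 differed at 6 of the 90 bases, with capitals now marking that pair.
Ly6c1: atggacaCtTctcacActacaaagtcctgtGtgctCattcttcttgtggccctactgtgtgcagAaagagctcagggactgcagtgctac
Ly6c2: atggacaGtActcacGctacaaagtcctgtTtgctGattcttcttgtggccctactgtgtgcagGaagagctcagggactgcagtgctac
Over the whole coding sequence, Gml and Gml2 were 86.6% identical in 531 aligned bases, Ly6c1 and Ly6c2 90.6% in 395, and Ly6a and Ly6c1 76.5% in 395. Of all 50-base stretches in the transcripts of a gene, 25.03% in Gml2, 22.5% in Gml, 28% in Ly6c1 and 10.04% in Ly6a also occurred in a transcript of another gene. The figure was 3.87% for Cd59a, all of it shared with Cd59b, and 0 for Ly6d, Ly6e, Lypd8, Plaur and Lypd3. No read length is stated in the labels, so these shares describe the sequences and not the mapping itself. The deposited counts bear the same mark: those of Ly6d, Ly6e, Lypd8, Plaur and Lypd3 were whole, and those of Ly6a, Ly6c1, Gml, Gml2 and Cd59a were in part fractional.

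Lypd8, the flagellum-binding barrier protein (Entrez gene 70163, chromosome 11), was by far the most abundant of the 10. Wild type had 10256 and 10057 FPKM, knockout 7576 and 8426 FPKM. It ranked first among all listed genes by FPKM in both wild-type libraries and in knockout replicate 1, and held rank 2 in knockout replicate 2. As a share of all counts this was 1.13% and 1.11% for wild type, 0.835% and 0.929% for knockout. Both knockout libraries lay below both wild-type libraries, and the mean was 10157 ± 140.4 against 8001 ± 601 FPKM (SD, n = 2 per group). The log2 fold change from TMM-scaled counts was -0.25 ± 0.05 (SE). That size depends on the scaling and on the libraries kept: it was -0.35 with library totals alone and -0.18 without knockout replicate 1.

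**Figure D1:**
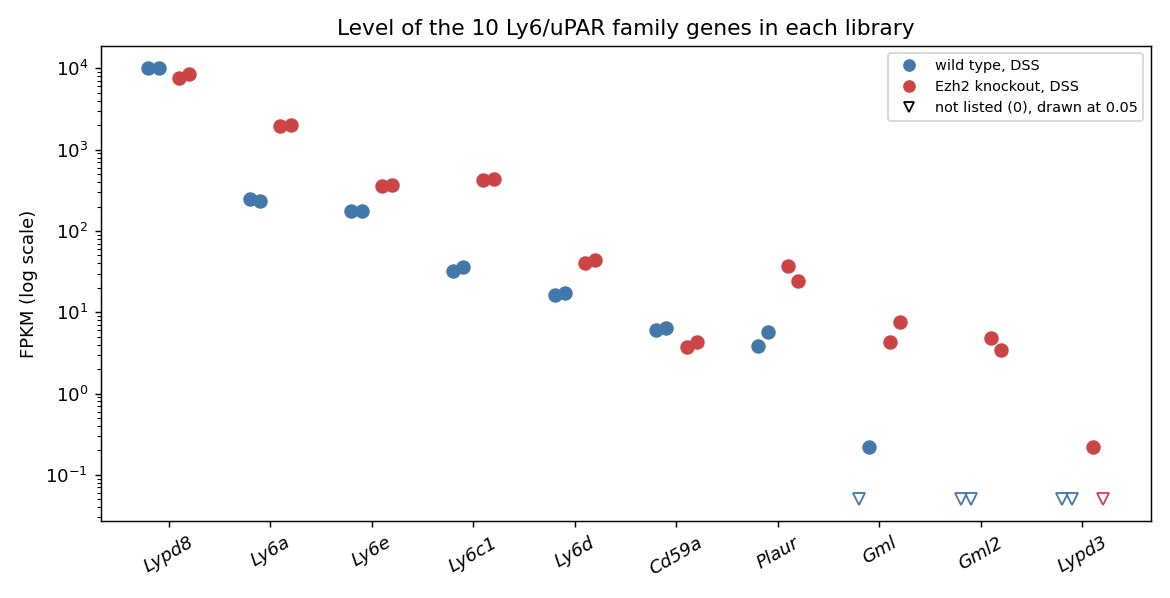
FPKM on a log axis for the 10 genes (horizontal axis) in each of 4 libraries, wild type in blue and knockout in red, with open triangles for genes not listed in a library. Lypd8 is highest throughout, and Ly6a lies at 231 to 244 FPKM in wild type against 1960.2 to 2039 FPKM in knockout.

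Ly6a and Ly6c1, neighbours on chromosome 15, showed the widest gaps between genotypes among the well-counted members. Ly6a (Entrez gene 110454) had wild-type counts of 1165 and 1140 beside knockout counts of 9989 and 10476. Its level was 244 and 231 FPKM against 1960.2 and 2039 FPKM, and its rank among listed genes went from 310 and 320 in wild type to 16 in both knockout libraries. The means, 238 ± 9.51 and 1999.5 ± 55.5 FPKM, stood 8.41-fold apart. From TMM-scaled counts the log2 fold change was 3.17 ± 0.08.

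Ly6c1 (Entrez gene 17067), a glycoprotein of endothelium and of some lymphoid cells, had 135 and 152 wild-type counts beside 1880.2 and 1984 from knockout. In FPKM the wild-type values were 32.4 and 36.1 and the knockout values 419 and 439, a log2 fold change of 3.77 ± 0.10. Each genotype held its own narrow range, and the ranges were far apart. Ly6c2, the near copy that marks monocytes, had 45.1 and 40.9 counts beside 37.4 and 72.9, so the knockout libraries lay on both sides of wild type.

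Sums over copies do not depend on how reads were divided among the genes summed. Ly6a, Ly6c1, Ly6c2, Ly6i and Ly6f together, without Ly6g, had 1434 and 1344 counts for wild type beside 12016 and 12582 for knockout, 8.98-fold apart after scaling by the TMM library sizes. Ly6c1 and Ly6c2 together had 180.04 and 193 beside 1918 and 2057, 10.8-fold apart. Single-gene FPKM ratios, which lack that scaling, were 8.41 for Ly6a and 12.5 for Ly6c1. With TMM scaling, the larger sum had a log2 difference of 3.17, beside 3.17 for Ly6a alone. Ly6c1 and Ly6c2 together had 3.44, beside 3.77 for Ly6c1 alone.

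Ly6e (Entrez gene 17069), an interferon-inducible protein that acts in restricting coronavirus entry, was already abundant in wild type. It stood at 177 and 179 FPKM there and at 355 and 367 FPKM in knockout, with a log2 fold change of 1.12 ± 0.07. All its counts were whole, from 1853 and 1942 in wild type to 3982 and 4142 in knockout, with no fractional part from reads divided among genes. Ly6d (Entrez gene 17068), a keratinocyte and early B lineage surface protein, had 55 and 61 counts beside 148 and 162 in the knockout libraries. Its level was 16.3 and 17.4 FPKM against 40.9 and 44.3 FPKM, a log2 fold change of 1.44 ± 0.16. For both genes every knockout library was above both wild-type libraries.

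Gml and Gml2, the pair of near copies shown above, were close to absent in wild type. Gml (Entrez gene 625599) was not listed in wild-type replicate 1 and had 1 count in replicate 2, against 20.7 and 36.2 in knockout. The rounded sums of 1 and 57 gave a ratio of 57.9 with an exact Clopper-Pearson 95% interval of 9.98 to 2326. This interval covers counting error only, and in a gene chosen for its difference it is no test. Gml2 (Entrez gene 15202) was not listed in either wild-type library and had 20.3 and 14.8 counts in knockout, at least 5.92-fold higher against a floor of 3 counts per wild-type library. Which copy the reads came from is uncertain, and their knockout sums were whole, at 41 and 51. Over the copies together wild type held 1 count and knockout 92, which stand 93.4-fold apart (exact 95% bounds 16.4 and 3730.1). These bounds too cover counting error only and are no test.

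Plaur (Entrez gene 18793) encodes the urokinase receptor, which gathers the protease urokinase on the cell surface. Counts were 27 and 45 for wild type, 274 and 199 for knockout. Its level was 3.87 and 5.73 FPKM against 36.6 and 24.4 FPKM, a log2 fold change of 2.74 ± 0.24. The libraries of each group differed more from each other than for Ly6a, Ly6c1, Ly6d and Ly6e, but every knockout library was above both of wild type. The deposited length of Plaur was 1396 bases in the replicate 1 tables and 1508 in those of replicate 2, although the transcript listed was the same, and the fold change from counts does not use that length.

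The other parts of the urokinase system were mixed. Of 20 listed ligands, inhibitors and partners, 15 were tested, of which 7 were higher and 2 lower in knockout, with a median log2 fold change of 0.27 beside -0.002 over all tested genes. Urokinase itself, Plau, was one of the 2 that fell, from 83 and 86 counts to 49 and 52 (log2 fold change -0.72, adjusted p = 0.0150). Its call was lost with DESeq2 (adjusted p = 0.0905), without wild-type replicate 1 (adjusted p = 0.0644) and without wild-type replicate 2 (adjusted p = 0.0647). In every such fit with a library left out, the lone library of that group is assumed to vary like those of the other group. Plat, the tissue-type activator, rose from 2.19 ± 0.47 to 10.1 ± 0.64 FPKM, a log2 fold change of 2.31 ± 0.21 (adjusted p = 4.63e-05). Annexin A2 and integrin alpha 3, encoded by Anxa2 and Itga3, rose by 0.92 and 0.84 on the log2 scale (adjusted p = 2.01e-05 and 4.87e-05). The clearance receptor Lrp1 was the other gene that fell (-0.58, adjusted p = 0.000557).

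Lypd3, a relative of the urokinase receptor found on stratified epithelium, was barely seen. It had 2 counts in knockout replicate 1 and was not listed in the other 3 libraries. Both groups were at or under the floor of 3 counts per library, so no fold is given.

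Cd59a (Entrez gene 12509) blocks assembly of the membrane attack complex of complement. Its knockout values of 3.79 and 4.3 FPKM lay below the wild-type values of 6.04 and 6.43 FPKM, a log2 fold change of -0.52 ± 0.23. The groups did not overlap. Cd59a and its copy Cd59b together gave whole counts, 53 and 60 for wild type, 37 and 43 for knockout.

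Many complement genes were too low to test. Of 18 listed, 8 were tested, with 5 higher and 2 lower (median log2 fold change 0.54). C3, the component on which the pathways converge, rose from 16.3 ± 2.52 to 60.3 ± 1.57 FPKM, a log2 fold change of 1.99 ± 0.12 (adjusted p = 2.85e-06). C4b, of the classical pathway, rose by 1.28 ± 0.10 (adjusted p = 1.85e-05). Cd55, the GPI-anchored regulator upstream of Cd59, fell from 308 and 303 counts to 210.2 and 213 (log2 fold change -0.51, adjusted p = 0.00409). The terminal components C6, C7, C8a and C9 had 9 counts or fewer in each library and were not tested.

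FPKM ranges of the genotypes did not overlap for 9 of the 10 genes, higher in knockout for 7 and lower for 2, beside 30.4% and 42.5% of all tested genes. These counts follow from how the 10 genes were picked, and nothing is read from them.

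The make-up of the family differed between genotypes while its total overlapped. Over the family genes listed in a file, without Ly6g, summed FPKM was 10931 and 10716 for wild type, 10838 and 11766 for knockout. Lypd8 made up 93.8% and 93.9% of the wild-type sums and 69.9% and 71.6% of the knockout sums. Ly6a went from 2.24% and 2.16% to 18.1% and 17.3%, and Ly6c1 from 0.296% and 0.337% to 3.87% and 3.73%. The 9 members other than Lypd8 together had 481 and 476 FPKM beside 2825 and 2929 FPKM. In bulk RNA, more cells of a type and more RNA per cell cannot be told apart.

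**Figure D2:**
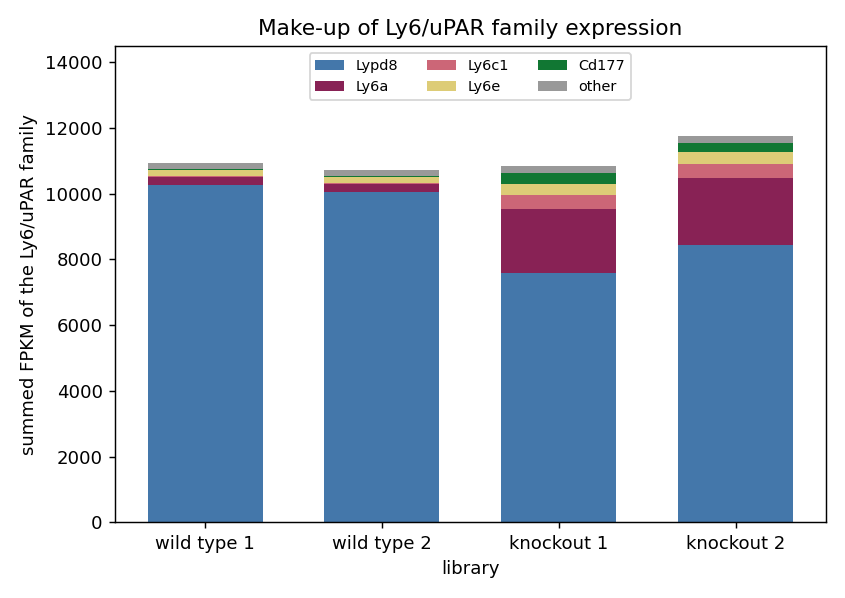
Summed FPKM of the Ly6/uPAR family without Ly6g (vertical axis, from 0) in each of the 4 libraries, stacked by gene. Lypd8 fills 93.8% and 93.9% of the wild-type bars and 69.9% and 71.6% of the knockout bars, and Ly6a follows with 18.1% and 17.3%.

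The chromosome 15 block shows how far the difference was shared among neighbours. Between Lynx1 and Gpihbp1 the RefSeq gene table orders 24 protein-coding genes, 6 of them members, and 6 of the 24 were not listed in any file. Apart from Ly6g and the members, 5 family genes of the block were tested. Of these, Lynx1 was higher and Ly6c2, Ly6f, Ly6i and Ly6m did not pass, 1 of 5 beside 23.0% of all tested genes. Lynx1, a modulator of nicotinic acetylcholine receptors next to Ly6d, rose from 4.64 ± 0.06 to 6.8 ± 0.83 FPKM, a log2 fold change of 0.65 ± 0.16 (adjusted p = 0.00881). Ly6m, next to Ly6e, had 46.4 and 49.4 FPKM beside 49.6 and 63.6 FPKM (adjusted p = 0.0540). It passed without knockout replicate 1 (0.50, adjusted p = 0.00294), with the replicate block (0.34, adjusted p = 0.000216) and on genes with the same transcripts (0.34, adjusted p = 0.0413). The 2 genes that flank the pair Ly6a and Ly6c1, Ly6i and Ly6c2, were thus not called beside ratios of 8.41 and 12.5 for the pair itself.

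**Figure D3:**
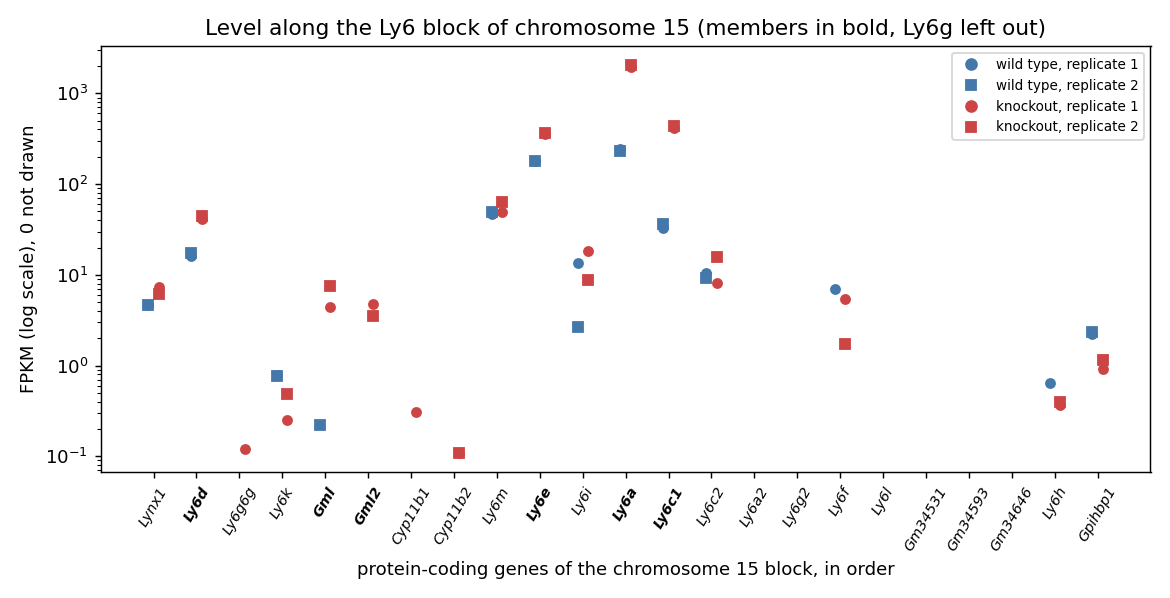
FPKM on a log axis along the Ly6 block of chromosome 15 in annotated gene order, with members in bold, wild type in blue, knockout in red, replicate 1 as circles and replicate 2 as squares. Ly6a and Ly6c1 separate by genotype, whereas Ly6i and Ly6f separate by replicate number.

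Ly6i and Ly6f followed the replicate number more than the genotype. Wild type first, Ly6i had 58.2 and 84.04 counts in the replicate 1 libraries, then 11.9 and 40.8 in those of replicate 2. Ly6f had 30 and 24.9 counts in replicate 1, then 0 and 8 in replicate 2. The replicate 2 tables also list Ly6g, at 1137 and 1015 counts, and those of replicate 1 do not. Ly6i passed with the replicate block (log2 fold change 0.91, adjusted p = 0.00145), without wild-type replicate 1 (2.41, adjusted p = 0.00292) and without knockout replicate 2 (1.29, adjusted p = 0.0386). Ly6f passed without wild-type replicate 1, where wild type is left with the library at 0 counts (adjusted p = 0.00708). Ly6c2 passed without knockout replicate 1 (0.77, adjusted p = 0.0426). The part of the differing gene list in these values was not tested.

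Genes next to the members elsewhere gave a mixed picture. Sh3bp5l, before Lypd8 on chromosome 11, had a log2 fold change of 0.09 ± 0.10 and did not pass, and its sign turned under library totals alone and in limma. The gene after Lypd8, 1810065E05Rik, rose by 1.26 ± 0.15 (adjusted p = 0.000202). It may be a family gene under a newer symbol, and it is in none of the family counts or sums here. Cadm4, next to Plaur on chromosome 7, and Phldb3, next to Lypd3, did not pass either (log2 fold change -0.12, adjusted p = 0.802; -0.21, adjusted p = 0.540).

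Outside the 10, calls in the rest of the family went both ways, at about the shares of all tested genes. Of 47 other family genes listed by symbol, 23 were listed in a file and 13 tested. Of the 13, 3 were higher, 3 lower and 7 not called, where 23.0% of all tested genes were higher and 20.8% lower. Their median log2 fold change was 0.34 beside -0.002 for all tested genes. With the replicate block the calls were 6 higher and 4 lower. Cd177, a GPI-anchored protein best known from neutrophils, had 468 and 455 counts beside 4548 and 3983. It rose from 32.7 ± 1.56 to 286 ± 28.6 FPKM, a log2 fold change of 3.23 ± 0.10 (adjusted p = 8.24e-08), higher in both knockout libraries. Lypd6b, a relative of Lynx1 that acts on nicotinic receptors, rose from 8 counts in each wild-type library to 35 and 29 (log2 fold change 2.01 ± 0.37, adjusted p = 0.00232).

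Of the 3 genes that fell, 2 belong to the family group on chromosome 17. Ly6g6e fell from a mean of 16.9 ± 0.35 FPKM to 7.23 ± 0.04, with a log2 fold change of -1.12 ± 0.19 (adjusted p = 0.00152). Its neighbour Ly6g6d fell from 11 and 25 counts to 5 and 4 (log2 fold change -1.94 ± 0.57, adjusted p = 0.0216). That call was lost without wild-type replicate 2 (-1.27, adjusted p = 0.243), without knockout replicate 1 (-2.12, adjusted p = 0.0665), without knockout replicate 2 (-1.78, adjusted p = 0.0933) and with DESeq2 (-1.97, adjusted p = 0.0781). Ly6g5b, of the same chromosome, had 2 and 3 wild-type counts beside 1 and 4 in knockout and was not tested, and Ly6g5c was not listed. Ly6g6c, also on chromosome 17, had 17.7 and 14.98 counts beside 3 and 8.99 and did not pass (log2 fold change -1.42, adjusted p = 0.0589). It passed without knockout replicate 2 (-2.38, adjusted p = 0.0431), and the closing section gives the other settings that moved it. Spaca4, described as a sperm acrosome membrane protein, fell from a mean of 47.05 ± 3.12 FPKM to 24.5 ± 5.35, with a log2 fold change of -0.84 ± 0.18 (adjusted p = 0.00457). Lypd1 and Pate9 did not pass (adjusted p = 0.119 and 0.408). Lypd1 passed with the replicate block (0.67, adjusted p = 0.0497), and the transcripts listed for Lypd1 differ between the replicate numbers.

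**Figure D4:**
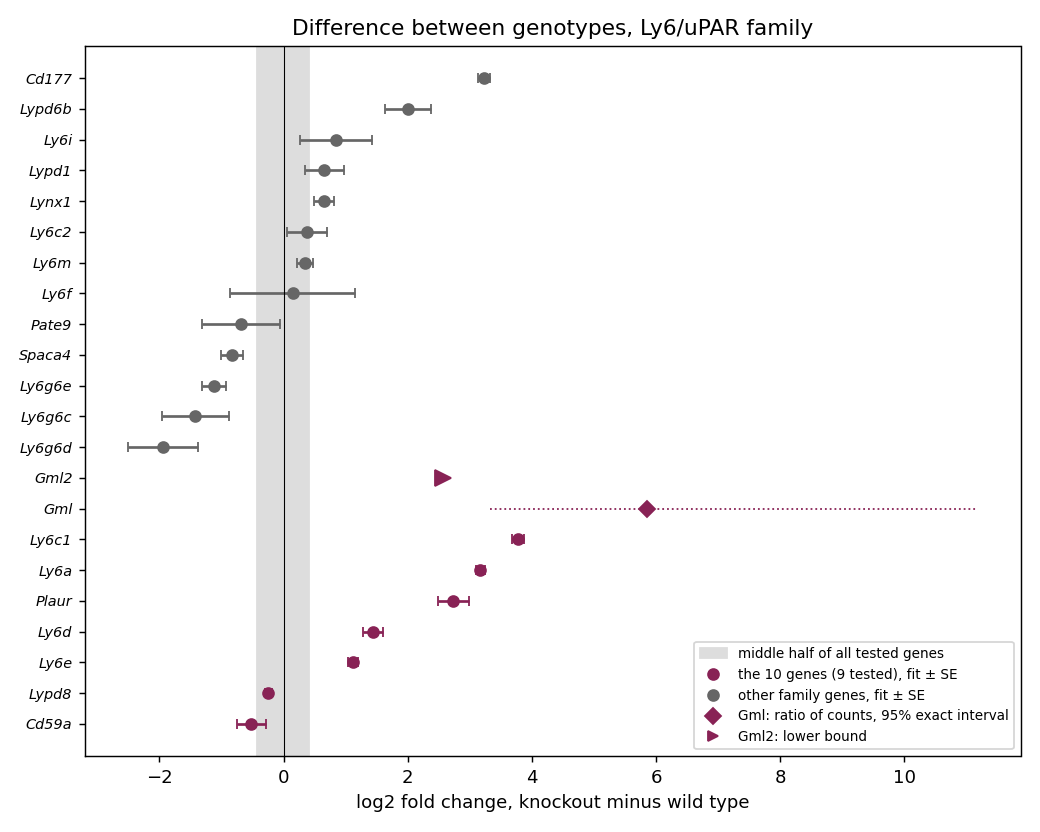
Log2 fold change, knockout minus wild type (horizontal axis), for the 9 members that passed the filter in purple and the 13 other tested family genes in grey, with standard errors, a 95% exact interval of the count ratio for Gml, a lower bound for Gml2 and the interquartile range of all tested genes as a grey band. Cd177 at 3.23 lies beside Ly6a at 3.17, and the tested chromosome 17 genes Ly6g6c, Ly6g6d and Ly6g6e lie below 0.

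Promoter sequence was compared for the members that the RefSeq promoter table (GRCm38.p6) holds: Cd59a, Plaur, Lypd3, Lypd8 and Ly6c1. Entries for Ly6a, Ly6d, Ly6e, Gml and Gml2 are missing. Each window runs from 250 bases before to 50 bases after the annotated start, 5′ to 3′ on the gene's strand. In the windows printed for Plaur, Ly6c1 and Lypd8, 30, 24 and 20 of the 20-base stretches occurred in GENCODE M21 transcripts of the gene on the printed strand and 0 on the other, but no transcript began at the annotated start, so positions hold for the RefSeq start. Plaur and Ly6c1 are shown as members higher in knockout and Lypd8 as the abundant one that was lower. Capitals mark matches to the searched motifs.
Plaur chr7:24462233-24462532 (+): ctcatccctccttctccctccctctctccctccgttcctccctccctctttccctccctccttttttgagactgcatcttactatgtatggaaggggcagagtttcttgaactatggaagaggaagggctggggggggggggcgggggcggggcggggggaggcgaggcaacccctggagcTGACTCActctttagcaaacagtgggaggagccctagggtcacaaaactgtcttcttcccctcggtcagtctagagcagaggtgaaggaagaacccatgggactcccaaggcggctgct
Ly6c1 chr15:75048788-75049087 (-): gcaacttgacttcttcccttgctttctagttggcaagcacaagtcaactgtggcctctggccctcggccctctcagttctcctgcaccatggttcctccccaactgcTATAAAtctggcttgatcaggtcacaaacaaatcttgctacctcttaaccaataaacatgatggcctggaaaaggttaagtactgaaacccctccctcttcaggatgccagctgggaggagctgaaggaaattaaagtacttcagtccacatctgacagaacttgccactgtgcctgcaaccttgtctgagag
Lypd8 chr11:58378782-58379081 (+): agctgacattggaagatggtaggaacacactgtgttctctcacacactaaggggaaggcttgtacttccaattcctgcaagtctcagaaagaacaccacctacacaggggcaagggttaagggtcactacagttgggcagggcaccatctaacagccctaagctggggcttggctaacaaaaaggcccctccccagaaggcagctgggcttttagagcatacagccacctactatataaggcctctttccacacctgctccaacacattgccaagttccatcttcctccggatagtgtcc
On both strands 5 motifs were searched: a STAT form (TTCNNNGAA), an interferon-response form (GAAA, any 2 bases, GAAA), an NF-kB form (GGG, any 2 bases, TTTCC), an AP-1 form (TGANTCA) and TATAAA. They occurred in 8.3%, 3.44%, 1.63%, 7.81% and 13.6% of all 32851 promoter windows. The AP-1 form stood in the Plaur window, with its first base at position -69 from the start, and TATAAA in that of Ly6c1, at -143. The interferon-response form stood in the Cd59a window at -187. No 2 matches overlapped. None of the 5 motifs was found in the Lypd3 window, in the other Ly6c1 window or in either of the 2 Lypd8 windows. The ratio of observed to expected CpG pairs was 0.051 for Lypd8 and 0.057 for Ly6c1 in the windows shown, 0.072 for Cd59a, 0.27 for Plaur and 0.39 for Lypd3, against a median of 0.38 over all windows. A second Lypd8 start had a ratio of 0.7, and a second Ly6c1 window had no CpG pair. A match is a description of the letters and no site.

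The enzymes that build the GPI anchor showed no common direction. Of 31 listed, 30 were tested, with 8 higher and 4 lower (median log2 fold change 0.21), or 6 and 6 under library totals alone. Pgap1, which removes an acyl chain from the new anchor, rose by 1.86 ± 0.19 (adjusted p = 7.54e-05), and Pgap3, which remodels its lipid, fell by 1.08 on the log2 scale (adjusted p = 0.000432). Tmed2, a cargo receptor for export of anchored proteins, rose by 0.73 (adjusted p = 0.000701). GPI-anchored surface proteins outside the family were more often lower than higher: of 37 listed and 32 tested, 8 were higher and 14 lower (median -0.17). Car4, a carbonic anhydrase of the colonocyte surface, fell from 1217 ± 65.1 to 267 ± 27.6 FPKM, while Smpdl3b and Bst2 rose by 2.57 and 2.07 on the log2 scale (adjusted p = 4.02e-06 and 8.2e-06).

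Programmes in which members are known to take part were also counted. Of 32 interferon-responsive genes 23 were higher and 3 lower (median log2 fold change 1.74), with Ifi47 at 3.91 ± 0.11, Iigp1 at 5.04 ± 0.12 and Psmb8 at 2.46 ± 0.09, all past the threshold. The 3 that fell were Irf7, Ifit1 and Rsad2 at -0.55, -1.23 and -1.12. Regenerative epithelial genes without Ly6a had 7 higher and 3 lower of 15 tested (median 0.40), led by Krt7, Areg and Anxa1 at 2.08, 1.55 and 1.12. Of 17 tested genes of the absorptive colonocyte, where Lypd8 is made, 11 were lower and 6 higher (median -1.09). Cyp2c55 and Mep1a fell by 8.14 and 2.91 on the log2 scale and Dhrs9 rose by 4.31, beside a log2 fold change of -0.25 for Lypd8.

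Markers of other cells that express family genes moved too, and their part in the members' values was not tested. Ly6c1 is a glycoprotein of endothelium and of some lymphoid cells, so 2 of the lists bear on it. Of 16 tested endothelial markers 0 were higher and 6 lower. At an unadjusted p under 0.05 these were 0 higher and 7 lower, and 0 and 3 by DESeq2. Over all 17 listed, summed FPKM was 76.2 to 80.7 in wild type and 48.7 to 54.0 in knockout. Plvap and Pecam1, the most abundant, fell from 26.7 and 9.33 FPKM to 15.1 and 6.24 FPKM. The call of Pecam1 was lost with DESeq2 (adjusted p = 0.172), without the filter on low counts (adjusted p = 0.0554), and without wild-type replicate 1, wild-type replicate 2 or knockout replicate 1 (adjusted p = 0.143, 0.0857 and 0.138). Kdr and Ptprb fell as well, by 0.86 and 0.83 on the log2 scale; Kdr was not called without wild-type replicate 1 (adjusted p = 0.0621), and Ptprb was not called without wild-type replicate 2 (adjusted p = 0.0549) or by DESeq2 (adjusted p = 0.0606). Among tested T and NK cell markers, also relevant to Ly6c1, 10 of 13 were higher and 0 lower. The counts were the same at an unadjusted p, and 9 and 0 by DESeq2. Over all 15 listed, summed FPKM went from between 22.1 and 22.8 to between 93.5 and 94.5. Cd8a rose by 2.88 ± 0.28 on the log2 scale. Gzma and Gzmb, the most abundant of them, reached 16.7 and 12.2 FPKM in knockout.

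Myeloid markers, relevant to Plaur and Cd177, had 11 of 16 higher and 0 lower, or 13 and 0 at an unadjusted p and 9 and 0 by DESeq2. Over all 21 listed, the marker sum was 317 to 349 FPKM in wild type and 574 to 607 in knockout. Lyz2 was at 174 and 220 FPKM and C1qa at 48.1 and 74.1 FPKM in the 2 groups. Lyz2 was not called without wild-type replicate 1 (adjusted p = 0.0688). S100a8 and S100a9 rose to 93.8 and 41.9 FPKM, log2 fold changes of 5.51 and 5.49, and C1qb by 0.92. The granule genes Mpo, Ngp and Elane, which define neutrophil precursors, were not listed in any library. Markers of stratified squamous epithelium, relevant to Ly6d and Lypd3, were mostly too low to test. Of 24 listed, 5 were tested, with 2 higher and 1 lower. Over all 24, summed FPKM was 20.8 to 25.7 in wild type and 72.1 to 77.2 in knockout. Sprr1a made up 59.1 FPKM of that in knockout and Pkp1 fell by 1.16 on the log2 scale. Lor rose by 1.65, a call lost without wild-type replicate 1 (adjusted p = 0.103) and without knockout replicate 1 (adjusted p = 0.101), while Trp63, Dsg3, Krt4, Krt6a, Sprr3 and Cnfn were not listed in any library.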

How the data were processed

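RNA of primary colon epithelial cells was extracted with Trizol and made into libraries from total RNA with an Illumina TruSeq kit, per the labels' protocols. The authors deposited 1 table per library that gives for each gene an expected count, in part fractional, an FPKM value normalized by the authors for gene length and depth, and a gene length, per the file headers. Bowtie2, BWA and the human build hg19 appear in the submitters' processing notes, although the labels give mouse, so no gene coordinates are given. What made the counts is not stated. Symbols came from the RefSeq gene table (GRCm38.p6), which matched 18820 of 18872 identifiers. Genes not listed count as 0.

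Expected counts were rounded and tested with edgeR 4.0.16 (filterByExpr, TMM, glmQLFTest, 2 against 2, two-sided, Benjamini-Hochberg over all genes) in R 4.3.3. Standard errors were obtained by dividing each absolute log2 fold change by the root of its F statistic. On simulated data with 13608 genes, 70 of 100 changes of 1 and 99 of 100 changes of 2 on the log2 scale were recovered. Of 178 calls there, 9 were false. Every simulated gene had the common dispersion of 0.0166 and few were changed, so these rates need not hold for the measured genes. DESeq2 1.42.0, limma 3.58.1 on log2(FPKM + 1) and log2(FPKM + 0.1), other filters, the same-transcript genes, the replicate block and leaving out each library were alternatives.

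Members and gene lists were chosen with earlier results of these data known. Named genes are the members, every other family gene tested, the next annotated genes that pass the filter, and in each list the 3 called genes with the smallest p, with the 2 most abundant of each marker list; some of these are not reported here. Plau, Lrp1, Cd55, the terminal complement genes, Irf7, Ifit1, Rsad2 and the markers at 0 were named after their values were seen. Libraries of a group differed by a chi-square per degree of freedom of 2.18 and 2.95, beyond sampling noise, and were kept apart.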

Additional observations from a re-analysis of the deposited data

How the results depend on the processing

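The members were chosen by this contrast, so their values across the 12 alternatives support nothing: Ly6a ranged from 3.07 to 3.21, Lypd8 from -0.35 to -0.18 and Cd59a from -0.62 to -0.44. The count of genes called ranged from 4610 to 5764 with a library left out and was 7403 with the replicate block. Correlation of the deviations between same-numbered libraries was 0.62, or 0.38 on genes with the same transcripts, and the labels do not say that a number pairs libraries. With the replicate block, 10 other family genes were called, against 6. GPI assembly genes called numbered 7 with DESeq2 and 7 to 10 with a library left out, against 12. Endothelial markers called numbered 3 with DESeq2 and 3 to 7 with a library left out, against 6. The cause was not tested.

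Single genes changed sign where they had not been called. Ly6c2 ranged from -0.18 to 0.77 and Ly6f from -0.90 to 7.07 with a library left out (-0.86 without wild-type replicate 2), and Cadm4 from -0.37 to 0.18 (0.04 without knockout replicate 1). Sh3bp5l was at -0.0090 with library totals alone and at -0.0107 and -0.0112 in limma. Ly6g6c passed with library totals alone (-1.52), in limma (-1.07 and -1.62), on same-transcript genes (-1.43) and with the block (-1.43). Of the 65 named genes outside the members, 726 values under alternatives kept their call and direction, 15 gained and 20 lost it, and 8 changed sign. Depth limits Gml, Gml2 and Lypd3, with at most 36.2 counts in a library.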
